A study of Mus musculus with 27 samples.

Results

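The genes described here are the 330 mouse zinc finger protein genes whose symbol is Zfp followed by a number, Zfp42 left out, among 20156 genes with expression values. For each, the gene body, the promoter (1000 bp either side of the transcription start) and the last 2 kb of the gene were read for 4 histone signals, together with its transcript level. The study followed mouse embryonic fibroblasts (MEFs) through a stalled intermediate, the pre-iPSC, to induced pluripotent stem cells (iPSCs), to see how chromatin and transcription change on the way. Nucleosomes were released with micrococcal nuclease (MNase) and precipitated with antibodies to histone H3, H3K4me3, H3K27me3 or H3K9me3. H3, H3K4me3, H3K27me3 and RNA were sequenced from 2 samples of each cell type, and H3K9me3 from 1. In all there were 21 chromatin and 6 RNA libraries.

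MEFs came from mid-gestation embryos with an Oct4-GFP reporter allele and a Rosa26 allele, each in 1 copy, on a background of CBA/CaJ and C57BL/6J, to which the study's methods add 129Sv/Jae mothers. Pre-iPSCs and iPSCs were made from such MEFs with retroviruses for the Yamanaka factors and kept for 6 passages with leukaemia inhibitory factor. They were grown on inactivated MEF feeders, so fibroblast chromatin and RNA can be present in these samples, and their part in the results below was not tested. They derive from a pair of pre-iPSC clones and the iPSCs obtained from them, and the labels do not say which library came from which clone. MEF nuclei were digested with another amount of MNase for another time than pre-iPSC and iPSC nuclei, so in every comparison of chromatin with MEFs digestion and cell type cannot be told apart.

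Most of these proteins bind DNA through tandem C2H2 fingers, short repeats that hold a zinc ion between a pair of cysteines and a pair of histidines. Many also carry a KRAB domain, which recruits Trim28 (KAP1) and, through it, the H3K9 methyltransferase Setdb1 and the HP1 proteins, chiefly to silence transposable elements. In several cell types the finger-coding 3' ends of KRAB zinc finger genes are themselves known to carry H3K9me3. H3K4me3 marks promoters of active genes and H3K27me3 is laid down by Polycomb.

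By the coding sequence of the GENCODE annotation, 328 of the 330 genes had a protein and 316 at least 1 C2H2 finger, with a median of 10 fingers and at most 36 in Zfp142. A KRAB A box was found in 147 by the pattern set for it and in 176 by a wider pattern added later. Among the 12 without a C2H2 match was Zfp36, an RNA-binding protein with fingers of another type. In 264 genes all the fingers lay in 1 exon. The genes were gathered on the genome, with 83 on chromosome 7, 38 on chromosome 17 and 30 on chromosome 13, and 145 of them lay in 23 clusters of at least 3 genes no more than 200 kb apart. Their last 2 kb had a median GC content of 42.55%, against 45.85% for all genes.

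The repeated part of these genes is shown by 2 consecutive fingers from each of the 4 genes with the highest mean H3K9me3 at the gene end (mm9). The capitals mark the codons of the linker, from after the last histidine of one finger to before the first cysteine of the next. Fingers 1 and 2 of Zfp180 lie at chr7:24890134-24890301 on the plus strand, fingers 2 and 3 of Zfp90 at chr8:108948310-108948477 on the plus strand, fingers 1 and 2 of Zfp810 at chr9:22083338-22083505 on the minus strand, and fingers 1 and 2 of Zfp663 at chr2:165178211-165178378 on the minus strand.
Zfp180: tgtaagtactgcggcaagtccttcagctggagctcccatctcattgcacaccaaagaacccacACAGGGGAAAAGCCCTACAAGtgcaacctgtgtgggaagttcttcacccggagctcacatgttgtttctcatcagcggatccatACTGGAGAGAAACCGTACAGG
Zfp90: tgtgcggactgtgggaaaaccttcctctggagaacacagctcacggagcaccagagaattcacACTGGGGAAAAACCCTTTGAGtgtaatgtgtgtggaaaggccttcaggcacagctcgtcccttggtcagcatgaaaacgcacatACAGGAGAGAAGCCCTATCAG
Zfp810: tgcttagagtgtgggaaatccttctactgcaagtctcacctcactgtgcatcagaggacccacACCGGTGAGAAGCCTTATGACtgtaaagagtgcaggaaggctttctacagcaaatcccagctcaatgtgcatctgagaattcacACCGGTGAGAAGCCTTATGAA
Zfp663: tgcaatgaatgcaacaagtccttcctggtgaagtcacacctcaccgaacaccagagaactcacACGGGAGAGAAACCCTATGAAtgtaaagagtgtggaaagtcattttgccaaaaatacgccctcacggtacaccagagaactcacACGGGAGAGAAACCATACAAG
Between pairs of these genes 64.3% to 76.2% of the 42 linker bases were the same, and 57.9% to 66.7% of the 126 bases of the fingers themselves. A stretch of 11 bases, those at positions 4 to 14 of the first linker of Zfp663, was found on either strand in the last 2 kb of 103 of the 330 genes (31.2%) and of 197 of all 20156 genes (0.977%). Reads from such repeats map uniquely only where the copies differ. In MEFs 17 of the 330 genes (5.15%) had under 0.1 RPKM of H3 over the body (reads per 1000 bp of region and per 1000000 uniquely mapped reads), against 5.40% of all genes.

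Calls of the H3 libraries held 67362868 to 108211816 reads, and those of the other marks 12007350 to 15222040. Replicate 1 of pre-iPSC H3 stood apart from the other H3 libraries. Over the last 2 kb of the Zfp genes its median was 0.293 RPKM against 0.589 for all genes, whereas replicate 2 of pre-iPSCs had 0.337 for both. Replicate 1 of iPSC H3 shared this in part, with 0.352 against 0.424. The labels name nothing that sets these libraries apart, and calls of H3 are given with and without them. As a check of the labels, all 8 fibroblast markers fell and all 8 pluripotency markers rose in iPSCs against MEFs (limma, see the methods). The summed FPKM of the fibroblast markers was 5128 and 11117 in MEFs, 443 and 525 in the pre-iPSCs, and 211 and 323 in the iPSCs, and was not 0 in the latter. The pluripotency markers summed to 0.147 and 1.03 FPKM in MEFs, to 881 and 3693 in the pre-iPSCs, where 2 of the 8 were at 0 in each library, and to 1803 and 2075 in the iPSCs. Replicate 2 of pre-iPSCs thus lay above both iPSC libraries. Pou5f1 alone had 378 and 3184 FPKM in the pre-iPSCs, Sox2 272 and 171, and Tdgf1 228 and 333. Pou5f1 (Oct4) and Sox2 are Yamanaka factors, and whether their reads came from the retroviruses was not tested. Nanog, Zfp42, Dppa3 and Esrrb had at most 0.519 FPKM in the pre-iPSCs. Pou5f1, Sox2, Tdgf1 and Dppa5a were the 4 of the 8 called higher in pre-iPSCs than MEFs, and 5 were called higher in iPSCs than pre-iPSCs. In these bulk samples fewer cells of a type and less RNA per cell cannot be told apart. The summed FPKM was 2.16 to 7.18 for primitive endoderm, with 1 of 3 tested markers higher in iPSCs than MEFs, and 0.0841 to 1.96 for trophoblast, with Cdx2 at or near 0 and 1 of 1 tested higher. For the neural list it was 18.4 to 41.3, and Sox1 and Pax6 were higher and Nes lower in iPSCs.

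H3K9me3 lay over the ends of many Zfp genes in MEFs and pre-iPSCs, and over few in iPSCs. The median over the last 2 kb was 0.394 RPKM in MEFs, 0.437 in the pre-iPSCs and 0.364 in the iPSCs, where all genes had 0.295, 0.374 and 0.364. A gene end was called rich where its RPKM was at least 2 times the median of all genes in the same library. In MEFs 96 Zfp genes were rich (29.1%, against 9.17% of all genes), in pre-iPSCs 60 (18.2%, against 2.46%) and in iPSCs 17 (5.15%, against 4.74%). With 1 library per cell type there is no test, and the medians rest on 12, 14 and 11 reads per gene. Of the 96 rich genes of MEFs 45 (46.9%) were rich in pre-iPSCs too, which is 75% of the rich genes there. Zfp180, Zfp575, Zfp810, Zfp90 and Zfp938 were rich in all 3 cell types, and 211 genes in none. These overlaps were not computed over all genes, so whether they are particular to Zfp genes was not tested.

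The signal sat toward the 3' end, least clearly in iPSCs. More H3K9me3 was found over the last 2 kb than over the promoter in 270 Zfp genes in MEFs (81.8%, against 63% of all genes), 285 in the pre-iPSCs (86.4%, against 67.7%) and 238 in the iPSCs (72.1%, against 60.7%). H3K9me3 medians at Zfp promoters were 0.164, 0.218 and 0.232 RPKM in MEFs, pre-iPSCs and iPSCs, against 0.394, 0.437 and 0.364 at the ends. H3 medians at Zfp promoters were 0.190 and 0.180 RPKM in MEFs, 0.429 and 0.188 in the pre-iPSCs and 0.360 and 0.216 in the iPSCs. At the ends H3 had 0.324 and 0.329, 0.293 and 0.337, and 0.352 and 0.346 RPKM. In 500-bp bins within 10 kb of the gene end, the mean over the Zfp genes peaked at 0.527 RPKM in MEFs, 0.535 in the pre-iPSCs and 0.390 in the iPSCs. For all genes the peaks were 0.335, 0.374 and 0.374 RPKM. In the 228 genes with at least 6 fingers in 1 exon and enough body beside it, the finger-coding stretch had a median of 0.605 RPKM in MEFs against 0.368 for the rest of the gene, and was the higher in 179. In pre-iPSCs these medians were 0.596 and 0.399 with 163 genes higher, and in iPSCs 0.374 and 0.316 with 137. H3 itself was higher over the finger-coding stretch in 58.3% to 64.0% of these genes in 5 libraries, but in 41.7% in replicate 1 of pre-iPSCs. The shares for H3K9me3 were 78.5% in MEFs, 71.5% in the pre-iPSCs and 60.1% in the iPSCs, the last within that range of H3.

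**Figure D1:**
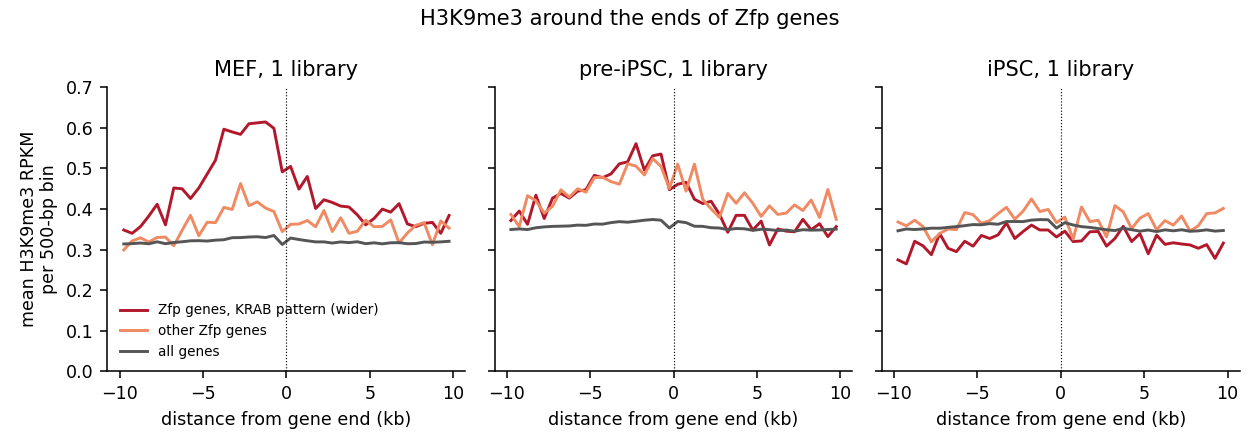
Mean H3K9me3 RPKM in 500-bp bins against the distance from the gene end in kb, in the 1 library of each cell type, for Zfp genes with a KRAB match (wider pattern), other Zfp genes and all genes. The KRAB genes reach 0.615 RPKM before the gene end in MEFs and 0.561 in the pre-iPSCs, and in iPSCs lie under the line of all genes in nearly every bin, for example at 0.265 against 0.351 RPKM in the bin centred at -9250 bp.

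Named by their mean over the 3 libraries, the 8 genes with the most H3K9me3 at the end were Zfp180, Zfp90, Zfp810, Zfp663, Zfp575, Zfp146, Zfp27 and Zfp167. Their levels ran from 0.984 to 1.87 RPKM in MEFs, 0.842 to 1.37 in the pre-iPSCs and 0.463 to 1.32 in the iPSCs. Zfp180, a protein of 12 fingers on chromosome 7 (24866963-24892234, plus strand), had 57 reads in MEFs (1.87 RPKM, exact Poisson 95% interval 1.42 to 2.42), 44 in the pre-iPSCs (1.37, 0.998 to 1.84) and 40 in the iPSCs (1.32, 0.946 to 1.8). The intervals cover counting error only, and those of Zfp180 overlap between the cell types. Zfp663, a KRAB gene on chromosome 2 (165176797-165187619, minus strand) listed at 0 FPKM in 5 of 6 RNA libraries, had 1.61 RPKM in MEFs (1.19 to 2.13), 1.06 in the pre-iPSCs (0.735 to 1.48) and 0.497 in the iPSCs (0.278 to 0.819). For Zfp663 the intervals of MEFs and iPSCs do not overlap.

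Zfp810, a KRAB gene of 10 fingers on chromosome 9 (22081192-22112082, minus strand), stood at 1.77, 0.998 and 0.728 RPKM in MEFs, pre-iPSCs and iPSCs. Zfp90, a KRAB protein of 13 fingers on chromosome 8 (108939239-108949789, plus strand), had 1.41, 1.34 and 0.927 RPKM. Zfp575 was the only 1 of the 8 with its highest value in iPSCs, at 0.984, 0.842 and 1.19 RPKM. Zfp146 and Zfp27, from the same cluster on chromosome 7, both had 1.44 RPKM in MEFs and 0.463 and 0.497 in the iPSCs. Zfp809, which silences retroviruses in embryonic cells, lies in the same cluster as Zfp810 and had 1.02, 0.624 and 0.364 RPKM.

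**Figure D2:**
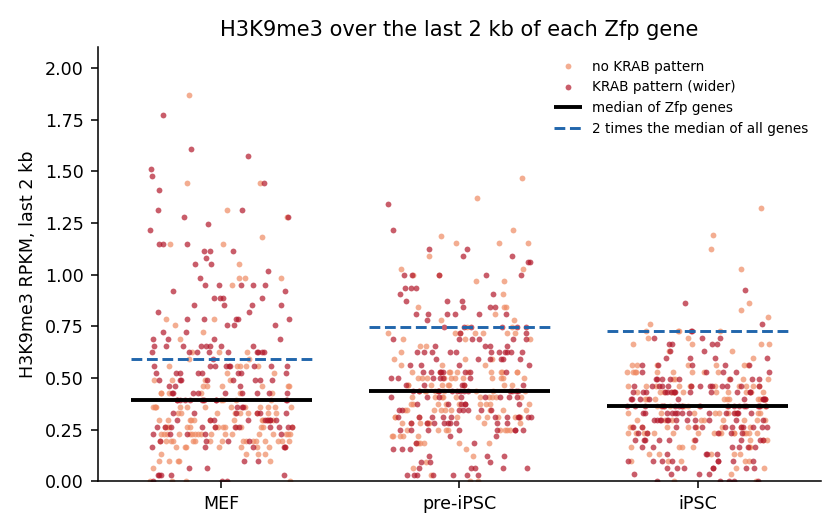
H3K9me3 RPKM over the last 2 kb of each of the Zfp genes (points) in the 1 library of each cell type, with the median of the Zfp genes (black lines) and 2 times the median of all genes (dashed lines). Points on or above the dashed line number 96 in MEFs, 60 in the pre-iPSCs and 17 in the iPSCs.

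H3K9me3 differed between kinds of Zfp gene. Of genes with 0 to 5 fingers 7.04% were rich in MEFs, of those with 6 to 9 fingers 22.1%, with 10 to 13 fingers 42.6% and with 14 or more 39.2%. In pre-iPSCs these shares were 4.23%, 16.9%, 27.7% and 20.3%, and in iPSCs no class passed 7.92%. By the KRAB pattern first set, 38.8% of KRAB genes and 21.5% of the others were rich in MEFs, and by the wider pattern 41.5% and 15.1%. In pre-iPSCs the wider pattern gave 21% and 15.1%, and in iPSCs 2.84% and 7.89%, the order there being turned. Inside clusters the pattern first set gave 39.3% of KRAB genes and 46.4% of the others in MEFs, and 19.1% and 32.1% in the pre-iPSCs. Outside clusters it gave 37.9% and 10.4% in MEFs, and 22.4% and 9.6% in the pre-iPSCs. The others in this split include genes that match the wider pattern. In 1 cluster on chromosome 7 (24866963-25372660) the wider pattern matched 9 of 12 genes and the pattern first set 0. The split by cluster was not made with the wider pattern, so it does not show how KRAB genes so defined compare there. Among genes with 10 or more fingers the wider pattern gave 44.6% and 32% in MEFs, but 20.8% and 34% in the pre-iPSCs. With under 10 fingers these were 32.6% and 6.86%, and 21.7% and 5.88%. Zfp genes that hold the linker stretch in their last 2 kb were rich in 46.6% of cases in MEFs and other Zfp genes in 21.1%. In pre-iPSCs these shares were nearer, at 21.4% and 16.7%, and in iPSCs they were 5.83% and 4.85%. The 94 genes outside the Zfp set that hold the stretch were rich in 10.6% of cases in MEFs, and whether they encode fingers too was not tested. KRAB genes also had a lower GC content over the last 2 kb (medians 39.98% and 46.43% by the wider pattern), and scaling each gene to genes of like GC gave 98, 78 and 25 rich Zfp genes in the 3 cell types, which is 29.7%, 23.6% and 7.58%, against 7.13%, 2.57% and 3.58% of all genes.

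Genes in clusters were rich more often than genes outside in MEFs and pre-iPSCs. In MEFs 42.1% of genes in clusters and 18.9% of genes outside were rich, in pre-iPSCs 35 of 145 and 25 of 185, and in iPSCs 4.14% and 5.95%. The highest cluster median in MEFs was 1.15 RPKM over Zfp105, Zfp167 and Zfp445 on chromosome 9 (122758028-122840146), which had 0.905 in the pre-iPSCs and 0.463 in the iPSCs. In the cluster of 14 genes on chromosome 7 (30553571-30954746) 10 were rich in MEFs, 6 in the pre-iPSCs and 0 in the iPSCs. A cluster of 17 genes on chromosome 13 (67139530-67927937) had 6, 0 and 0 rich genes, and one of 15 KRAB genes on chromosome 17 (21520712-22593656) had 4, 0 and 0. In a cluster of 8 genes on chromosome 7 (134376957-134757947) 0 were rich in MEFs and 2 in the pre-iPSCs. Neighbouring genes share long repeats and are not independent points.

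**Figure D3:**
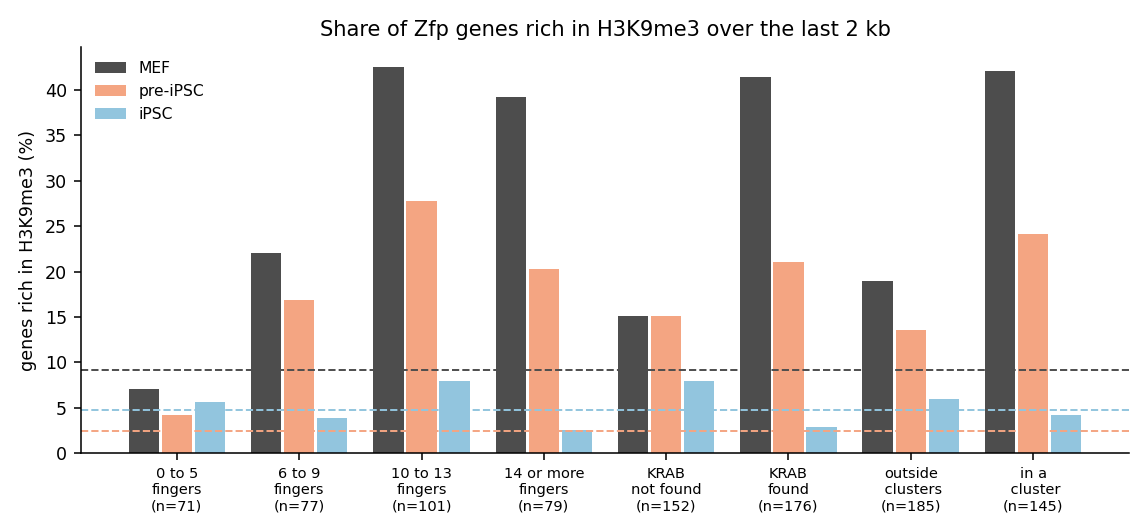
Percent of Zfp genes rich in H3K9me3 over the last 2 kb (bars, 1 library each) by number of fingers, KRAB match (wider pattern) and place in a genomic cluster; dashed lines give the percent of all genes, 9.17 in MEFs, 2.46 in the pre-iPSCs and 4.74 in the iPSCs. The share is 42.6% in MEFs for genes with 10 to 13 fingers and 7.04% for those with 0 to 5.

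H3K9me3 at Zfp ends was lower in iPSCs than in the other cell types more often than at all genes. A gene was counted as higher or lower past 1.5-fold where both libraries together held at least 20 reads. From MEFs to pre-iPSCs 61 of 237 Zfp genes were higher and 45 lower, against 28.7% and 12.1% of all genes. This balance turned under some scalings, with 42 higher and 73 lower after division by mean H3 (13.1% and 47.2% of all genes). The mean H3 includes the pre-iPSC library that stood apart. The counts were 44 and 68 relative to the median ratio of all genes (20.7% and 17.9%), and 44 and 62 within GC classes (18.1% and 21%). The balance did not turn with replicate 2 of H3 as divisor, at 56 and 55 (30.1% and 12.2% of all genes). Nor did it over whole bodies, at 57 and 11 of 324 genes (19.5% and 5.34%). With calls of at least 2 reads it was even, at 48 and 48 of 183 genes (33.2% and 17.9%). From pre-iPSCs to iPSCs 22 of 243 were higher and 97 lower, against 17.1% and 17.5% of all genes. In iPSCs against MEFs 38 of 219 were higher and 94 lower, against 30.9% and 12.8%, with a median ratio of 0.740 for the Zfp genes and 1.15 for all genes. These are single libraries, and the comparisons share them. With H3K9me3 divided by the mean H3 of the cell type, 86, 149 and 31 Zfp genes were rich in MEFs, pre-iPSCs and iPSCs, or 26.2%, 45.4% and 9.45%, against 5.69%, 15.7% and 5.24% of all genes. With H3 of replicate 2 alone as the divisor the counts were 97, 54 and 22, or 29.6%, 16.5% and 6.75%, against 6.06%, 3.6% and 4.7%.

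H3K9me3 at the end was only weakly related to transcript level. In MEFs the median FPKM was 1.72 for rich and 2.54 for other Zfp genes, in pre-iPSCs 1.87 and 1.90, and in iPSCs 2.02 and 1.93. Spearman's rho between H3K9me3 and FPKM over the 330 genes was -0.17 in MEFs, 0.036 in the pre-iPSCs and -0.048 in the iPSCs, a description over genes that share 1 library. A mean of at least 1 FPKM was reached by 66.7% of rich and 70.9% of other Zfp genes in MEFs, by 71.7% and 67.4% in the pre-iPSCs, and by 94.1% and 69.3% in the iPSCs, where 17 genes were rich.

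H3 over Zfp genes gave no call. Of 328 bodies and 322 promoters tested, 0 passed edgeR's quasi-likelihood test (adjusted p under 0.05) in any of the 3 comparisons, as did 0% of all genes, and DESeq2 also called 0. At an unadjusted p under 0.05 the bodies numbered 0, 0 and 0, and the promoters 4, 2 and 5, in pre-iPSCs against MEFs, iPSCs against pre-iPSCs and iPSCs against MEFs. Over all genes these were 47, 6 and 11 of 19513 bodies, and 368, 107 and 301 of 19560 promoters. Without replicate 2 of pre-iPSCs, which leaves the library that stood apart, 61 bodies were called higher and 112 lower in pre-iPSCs than in MEFs, against 29.3% and 29.8% of all genes. Promoters numbered 8 higher and 36 lower there, and 14 higher in iPSCs than in pre-iPSCs. These promoter shares of all genes were 5.94%, 17.4% and 10.5%, above those of Zfp genes (2.48%, 11.2% and 4.35%). Without replicate 1 of pre-iPSCs, or of iPSCs, 0 bodies and 0 promoters were called in each comparison. The median H3 change of Zfp bodies in pre-iPSCs against MEFs was -0.11 on the log2 scale with all libraries, -0.35 without replicate 2 of pre-iPSCs and 0.04 without replicate 1. Over the last 2 kb of KRAB genes (pattern first set) H3 of pre-iPSCs was 0.112 RPKM in replicate 1 but 0.337 in replicate 2, beside 0.335 and 0.324 in MEFs.

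H3K4me3 at Zfp promoters was highest in MEFs. The median over 330 promoters was 1.66 and 1.24 RPKM in MEFs, 0.997 and 0.926 in the pre-iPSCs and 0.962 and 0.921 in the iPSCs, where all genes had 1.22 and 0.955, 0.859 and 0.812, and 0.900 and 0.823. A level above 1 RPKM was found at 263 and 219 Zfp promoters in MEFs, 165 and 145 in the pre-iPSCs and 146 and 132 in the iPSCs. These are 79.7% and 66.4%, 50% and 43.9%, and 44.2% and 40% of Zfp promoters, against 56.4% and 47.3%, 40.5% and 35.9%, and 41.1% and 34.4% of all promoters. In iPSCs against MEFs 21 of 315 tested promoters fell and 3 rose (edgeR's quasi-likelihood test, Benjamini-Hochberg adjusted p under 0.05), against 4.22% and 9.58% of all promoters. The median change was -0.27 on the log2 scale for Zfp promoters and -0.03 for all. In pre-iPSCs against MEFs 1 rose and 2 fell (2.96% and 0.831% of all), and in iPSCs against pre-iPSCs 0 were called (0% of all). In the latter 19 of 315 had an unadjusted p under 0.05 (edgeR), against 1587 of all 17698 promoters tested, a larger share. Scaled to uniquely mapped reads alone, which moves the median of all genes to -0.37, 3 rose and 61 fell in iPSCs against MEFs (0.952% and 19.4%, against 4.75% and 13.2% of all promoters). Scaled in this way 1 rose and 25 fell in pre-iPSCs against MEFs (0.317% and 7.94%, against 1.31% and 6.33%).

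Of the 21 promoters that fell 17 belong to KRAB genes by the wider pattern, 15 lie in clusters, of 142 promoters tested there against 6 of 173 outside, and 7 lie in the chromosome 17 cluster of 15 genes (Zfp52, Zfp677, Zfp758, Zfp942, Zfp943, Zfp944 and Zfp946). By the pattern first set 16 of 136 KRAB promoters and 5 of 179 others fell. Promoters of a cluster can share sequence, as Zfp758 and Zfp942 do below, and are not independent points. DESeq2 called 0 of the 24, and 0.638% and 0.0226% of all promoters as higher and lower. Without replicate 1 of MEFs 1 rose and 1 fell, against 2.6% and 0.671% of all promoters. Without replicate 1 of iPSCs 4 rose and 6 fell, against 4.19% and 1.11%, and without replicate 2 of iPSCs 3 rose and 12 fell, against 6.25% and 2.41%. The number of calls thus went down over all promoters as well as over those of Zfp genes.

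The 200 bases before the start of 4 genes at either end of this range (mm9) are given with each CpG, the dinucleotide that H3K4me3 tends to follow, in capitals. Zfp758 (chr17:22498220-22498419, plus strand) and Zfp942 (chr17:22099432-22099631, minus strand) had the largest falls, and Zfp740 (chr15:102038498-102038697, plus strand) and Zfp488 (chr14:34791951-34792150, minus strand) the largest rises.
Zfp758: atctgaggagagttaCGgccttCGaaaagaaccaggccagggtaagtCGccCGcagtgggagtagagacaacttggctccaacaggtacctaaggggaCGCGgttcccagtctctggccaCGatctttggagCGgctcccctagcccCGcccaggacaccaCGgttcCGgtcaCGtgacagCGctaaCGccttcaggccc
Zfp942: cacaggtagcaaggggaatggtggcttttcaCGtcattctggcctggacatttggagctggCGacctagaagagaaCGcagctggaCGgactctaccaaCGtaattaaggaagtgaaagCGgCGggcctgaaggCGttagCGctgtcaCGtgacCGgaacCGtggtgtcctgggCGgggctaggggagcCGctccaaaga
Zfp740: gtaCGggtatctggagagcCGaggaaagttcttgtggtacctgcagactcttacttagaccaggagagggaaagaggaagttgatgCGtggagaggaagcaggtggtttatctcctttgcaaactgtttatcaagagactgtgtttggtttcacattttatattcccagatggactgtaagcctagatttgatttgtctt
Zfp488: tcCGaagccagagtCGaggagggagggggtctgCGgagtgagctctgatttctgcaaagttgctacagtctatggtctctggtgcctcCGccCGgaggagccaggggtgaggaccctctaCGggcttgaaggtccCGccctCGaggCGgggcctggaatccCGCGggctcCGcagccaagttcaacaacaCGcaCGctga
Zfp758 and Zfp942 hold 14 CpGs each and share a run of 77 bases on opposite strands, while no run shared with the other 2 genes was longer than 9 bases. Zfp740 holds 3 CpGs and Zfp488 holds 14. Over all promoters the median CpG ratio (observed over expected) was 0.638 for Zfp genes and 0.601 for all genes.

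At Zfp758, a KRAB gene of 12 fingers, H3K4me3 was 1.52 and 1.11 RPKM in MEFs, 0.583 and 0.682 in the pre-iPSCs and 0.590 and 0.230 in the iPSCs. Its 2 MEF values were the highest, and the fall in iPSCs was -1.32 ± 0.35 (log2, SE, edgeR adjusted p = 0.00982). Zfp942 had 1.49 and 0.987, 0.521 and 0.617, and 0.497 and 0.296 RPKM, again with no overlap between MEFs and the others (-1.28 ± 0.35, edgeR adjusted p = 0.0126). Zfp488, a transcriptional regulator with 2 fingers known from the oligodendrocyte lineage, went the other way, with 0.440 and 0.223 RPKM in MEFs, 0.797 and 0.390 in the pre-iPSCs and 0.900 and 0.921 in the iPSCs. The rise was 1.8 ± 0.40 (edgeR adjusted p = 0.00232), called also without each of the 6 libraries in turn, but not by DESeq2 (adjusted p = 0.103). At Zfp750, a regulator of epidermal differentiation, the promoter rose already in pre-iPSCs, from 0.440 and 0.382 to 1.01 and 1.10 RPKM (1.73 ± 0.35, edgeR adjusted p = 0.00211). The falls of that comparison were at Zfp946, from 2.51 and 1.34 to 0.613 and 0.845 RPKM (-1.0 ± 0.28, edgeR adjusted p = 0.0314), and Zfp873, from 1.66 and 1.82 to 0.583 and 0.780 RPKM (-0.99 ± 0.29, edgeR adjusted p = 0.0387). DESeq2 called 0 of these 3, and 0.175% of all promoters as higher and 0 as lower. Without replicate 1 of MEFs 0 were called (0.458% of all promoters higher and 0.0764% lower), and without either pre-iPSC library 1 (0.991% to 1.05% and 0.0984% to 0.181%). Zfp740 had 0.407 and 0.510, 0.521 and 0.682, and 0.993 and 0.921 RPKM, with the iPSC values above the others (1.38 ± 0.36 against MEFs, edgeR adjusted p = 0.00829).

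H3K27me3 over Zfp gene bodies was low and was higher after reprogramming. Its median was 0.162 and 0.179 RPKM in MEFs, 0.258 and 0.212 in the pre-iPSCs and 0.291 and 0.233 in the iPSCs, under that of all genes in each library (0.204 and 0.248, 0.316 and 0.267, 0.335 and 0.293). In iPSCs against MEFs 50 of 321 bodies rose and 8 fell (15.6% and 2.49%, edgeR's quasi-likelihood test, adjusted p under 0.05), against 14.2% and 12.7% of all genes. The share that rose was thus near the background, and the share that fell was under it. The median change was 0.32 on the log2 scale against 0.07 for all genes. In pre-iPSCs against MEFs 15 rose and 9 fell, against 9.93% and 11.5%, and in iPSCs against pre-iPSCs 6 rose and 0 fell, against 0.855% and 0.204%. DESeq2 called 27 rises and 8 falls in iPSCs against MEFs (8.41% and 2.49%, against 8.68% and 11.4% of all genes). Scaling to uniquely mapped reads alone, which moves the median of all genes to 0.33, called 68 rises and 2 falls there (21.2% and 0.623%, against 19.3% and 3.56% of all genes), and 26 rises and 2 falls in pre-iPSCs against MEFs (8.1% and 0.623%, against 14.8% and 3.37%). Without replicate 1 of MEFs 21 rises and 3 falls were called in iPSCs against MEFs (6.48% and 0.926%, against 6.13% and 4.79% of all genes), and without replicate 1 of iPSCs 26 and 5 (8.1% and 1.56%, against 7.54% and 5.18%). In iPSCs against pre-iPSCs 2 of the 6 rises were called with the replicate number as a block (0.328% of all genes), and 0 when scaled to uniquely mapped reads or with calls of at least 2 reads, where 0 of all genes were called too. For this comparison 0 rises were called without replicate 2 of pre-iPSCs (0.0221% of all genes) and 3 without replicate 1 of iPSCs (0.677%). In pre-iPSCs against MEFs 7 rises and 4 falls were called without replicate 1 of MEFs (3.64% and 3.92% of all genes), 7 and 5 without replicate 1 of pre-iPSCs (3.59% and 3.55%), and 22 and 13 without either iPSC library (12.6% to 12.7% and 13.9% to 14%). KRAB genes held 15 of the 50 rises, of 142 tested, and the other genes 35 of 179.

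The 2 largest rises were in paralogs without a match to the C2H2 pattern. Zfp703, a cofactor that represses transcription, had 0.0881 and 0.103 RPKM in MEFs, 0.614 and 0.755 in the pre-iPSCs and 1.44 and 0.637 in the iPSCs. It rose by 3.16 ± 0.43 in iPSCs against MEFs (log2, SE, edgeR adjusted p = 3.4e-05), and its transcript went from 32.4 and 14.5 FPKM in MEFs to 3.72 and 4.48 in the iPSCs. Zfp503, its paralog, had 0.0752 and 0.113 RPKM in MEFs, 0.539 and 0.607 in the pre-iPSCs and 0.695 and 0.561 in the iPSCs, with no overlap between MEFs and the others (2.46 ± 0.35, edgeR adjusted p = 5.41e-05). Zfp9, a KRAB gene, rose from 0.122 and 0.138 to 0.482 and 0.548 RPKM in iPSCs (1.73 ± 0.25, edgeR adjusted p = 7.06e-05). All 3 calls held without each of the 6 libraries in turn and by DESeq2.

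Zfp319 gained H3K27me3 in the second step, with 0.136 and 0.219 RPKM in MEFs, 0.281 and 0.200 in the pre-iPSCs and 0.981 and 0.595 in the iPSCs (1.7 ± 0.32 in iPSCs against pre-iPSCs, edgeR adjusted p = 0.0160). H3K9me3 over its end, at 0.197, 0.406 and 1.03 RPKM, was highest in iPSCs too. Zfp703 had 0.230, 0.406 and 1.13 RPKM of H3K9me3, whereas Zfp503 had 0.131, 0.374 and 0.298 and Zfp46 0.263, 1.12 and 0.364, both highest in pre-iPSCs. Falls were led by Zfp185, a LIM-domain protein on the X chromosome, from 0.352 and 0.403 RPKM in MEFs to 0.184 and 0.215 in the iPSCs (-1.17 ± 0.19, edgeR adjusted p = 0.000144). At Zfp819, a KRAB gene by the wider pattern that is active in early embryos, H3K27me3 was 0.486 and 0.472 RPKM in MEFs, 0.279 and 0.182 in the pre-iPSCs and 0.290 and 0.231 in the iPSCs (-1.13 ± 0.26 in the iPSCs, edgeR adjusted p = 0.00376). Zfp936 fell from 0.159 and 0.168 RPKM in MEFs to 0.111 and 0.0617 in the iPSCs (-1.17 ± 0.33, edgeR adjusted p = 0.0134). Zfp46, a KRAB gene, rose between pre-iPSCs and iPSCs, from 0.222 and 0.225 to 0.622 and 0.440 RPKM (1.24 ± 0.29, edgeR adjusted p = 0.0372), but not by DESeq2 (adjusted p = 0.160). In the first step falls were called at Zfp764 (-2.20 ± 0.70, edgeR adjusted p = 0.0299) and Zfp296 (-1.32 ± 0.46, edgeR adjusted p = 0.0437), in 2 and 3 of the 6 fits without 1 library.

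Transcripts of Zfp genes were present at modest levels in every cell type. At least 1 FPKM was reached by 63% to 72.7% of them in a library, against 51.4% to 54.5% of all genes, and 5 to 17 were listed at 0. Zfp207, a spindle assembly protein, was the highest in 5 of 6 libraries, at 90.2 and 74.5 FPKM in MEFs, 117 and 63.1 in the pre-iPSCs and 107 and 97.3 in the iPSCs. Zfp36, which destabilises messenger RNAs, had 29.2 and 36.2, 77.1 and 42.8, and 42.7 and 49.1 FPKM, and Zfp91, a ubiquitin ligase, had 34.4 and 35.1, 19.6 and 26.0, and 14.4 and 17.9. In iPSCs against MEFs 22 of the 286 tested rose and 16 fell (limma on log2(FPKM + 1), adjusted p under 0.05 and at least 2-fold), against 10.3% and 15.5% of all genes. In pre-iPSCs against MEFs 10 rose and 6 fell (7.39% and 9% of all), and in iPSCs against pre-iPSCs 7 rose and 1 fell (3.91% and 4.71%). Of the 7 rises in the second step 6 were among 126 tested KRAB genes and 1 among 160 others. The KRAB genes Zfp459, Zfp534, Zfp600 and Zfp936 passed the filter of 0.5 FPKM only through their iPSC values. A rise was thus built into their being tested, and nothing is concluded from this split. Without replicate 1 of iPSCs the first of these comparisons called 12 rises and 2 falls (4.05% and 5.04% of all genes), and without replicate 2 of iPSCs 6 and 5 (4.15% and 6.11%). The comparison of iPSCs with pre-iPSCs called 14 rises and 11 or 12 falls without a MEF library (7.38% to 7.6% and 10.4% to 10.8% of all genes), and 2 to 5 rises without any other (0.479% to 2.93%). In pre-iPSCs against MEFs 20 rises and 6 falls were called without replicate 1 of MEFs (7.02% and 2.11%, against 10% and 13% of all genes), and 5 and 1 without replicate 2 of pre-iPSCs (1.75% and 0.35%, against 4.9% and 3.75%).

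Zfp57, the KRAB protein that keeps methylation at imprinted loci, rose in the first step, with 21.4 and 10.2 FPKM in MEFs, 79.8 and 87.6 in the pre-iPSCs and 64.9 and 64.1 in the iPSCs. Its change was 2.42 ± 0.40 in pre-iPSCs against MEFs (log2, SE, limma adjusted p = 0.00834) and -0.37 ± 0.40 in iPSCs against pre-iPSCs (limma adjusted p = 0.687). Zfp296, known as a reprogramming factor, rose in the first step, from 0.840 and 1.51 to 12.0 and 8.61 FPKM, and had 25.8 and 18.1 in the iPSCs, a second step that was not called. Its change in iPSCs against MEFs was 3.40 ± 0.40 (limma adjusted p = 0.00187). Zfp423 had 0.297 and 0.599 FPKM in MEFs, 11.2 and 3.63 in the pre-iPSCs and 9.93 and 6.63 in the iPSCs (2.66 ± 0.47 in iPSCs against MEFs, limma adjusted p = 0.00763). Zfp819 stood at 0 and 0.130, 3.26 and 4.88, and 4.44 and 4.55 FPKM. Zfp750 was highest in the intermediate, with 0 and 0.0712, 7.84 and 3.08, and 1.54 and 1.40 FPKM (2.54 ± 0.40 in pre-iPSCs against MEFs, limma adjusted p = 0.00678).

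A second set rose on reaching iPSCs. Zfp936, a KRAB gene of 11 fingers, was listed at 0 in both MEF and both pre-iPSC libraries and had 10.3 and 12.7 FPKM in iPSCs (limma adjusted p = 0.0016 against pre-iPSCs). Zfp488 had 9.17 and 4.21 FPKM in MEFs, 8.61 and 19.7 in the pre-iPSCs and 61.3 and 83.7 in the iPSCs. Zfp459, a KRAB gene, had 0.0298 and 0.231, 0.385 and 0.129, and 2.52 and 3.85 FPKM. The transcripts of Zfp534 and Zfp600, KRAB genes on chromosome 4, went from at most 0.243 and 0.0381 FPKM in MEFs and pre-iPSCs to 11.4 and 21, and to 6.36 and 19.8, in iPSCs. The values of these 2 genes are uncertain, since uniquely mapped H3 reads over both bodies were nearly absent (0.00186 to 0.0216 RPKM over the 6 libraries). How far their reads can be told from those of similar copies was not tested.

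**Figure D4:**
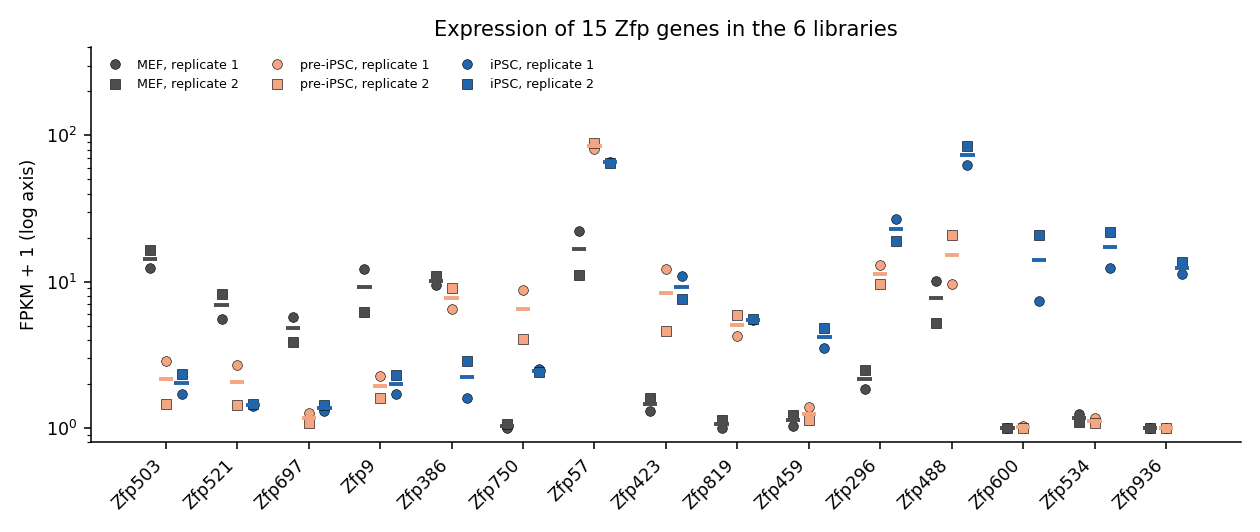
FPKM + 1 on a log axis of 15 named Zfp genes in the 6 RNA libraries (points, 2 per cell type, with the mean as a bar). Zfp503, Zfp521, Zfp697 and Zfp9 are highest in MEFs, Zfp750 in the pre-iPSCs, and Zfp534, Zfp600, Zfp936 and Zfp488 in the iPSCs.

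Among the Zfp transcripts that fell, Zfp503 had 11.4 and 15.4 FPKM in MEFs, 1.88 and 0.468 in the pre-iPSCs and 0.704 and 1.33 in the iPSCs (-2.84 ± 0.46 in iPSCs against MEFs, limma adjusted p = 0.00545). Zfp521, a factor of mesenchymal and neural progenitors, had 4.60 and 7.31, 1.71 and 0.440, and 0.414 and 0.455 FPKM. Zfp697 had 4.76 and 2.87, 0.258 and 0.0811, and 0.306 and 0.447 FPKM. Zfp386, a KRAB gene, had its lowest values in iPSCs, with 8.43 and 9.94, 5.48 and 8.08, and 0.600 and 1.86 FPKM, and was the only fall in iPSCs against pre-iPSCs (-1.84 ± 0.37, limma adjusted p = 0.0262). This call was kept without 2 of the 6 libraries taken out in turn and lost without either iPSC library. Of the genes with a known role, Zfp13 was called higher in iPSCs than MEFs (1.25 ± 0.36, limma adjusted p = 0.0414), a call lost without any 1 of the 6 libraries. Zfp809 (0.47 ± 0.38), Zfp281 (0.59 ± 0.40), Zfp462 (0.48 ± 0.61), Zfp143 (0.89 ± 0.37), Zfp148 (-0.95 ± 0.39), Zfp532 (0.47 ± 0.41), Zfp110 (0.51 ± 0.38) and Zfp105 (-0.40 ± 0.39) were not called, and Zfp92 was at or near 0 in every library.

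Some genes were called for both transcript and H3K27me3 in iPSCs against MEFs. H3K27me3 was higher and the transcript lower at Zfp334, Zfp46, Zfp503, Zfp618, Zfp651, Zfp697, Zfp703 and Zfp9, which is 16% of the 50 rises of H3K27me3 and 50% of the 16 falls of transcript. Over all genes the same overlap took 36.9% of the rises of H3K27me3 and 48% of the falls of transcript. The mark was lower and the transcript higher at Zfp185, Zfp459, Zfp819 and Zfp936, 50% of the 8 falls and 18.2% of the 22 rises, against 20.9% and 36.7% over all genes. H3K4me3 and transcript both fell at Zfp334, Zfp386, Zfp46 and Zfp52 and both rose at Zfp488. The shared falls are 19% of the 21 falls of H3K4me3 and 25% of the 16 falls of transcript, against 24.1% and 9.34% over all genes. The shared rise is 1 of 3 rises of H3K4me3 and 1 of 22 rises of transcript, against 15.3% and 20.3%.

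**Figure D5:**
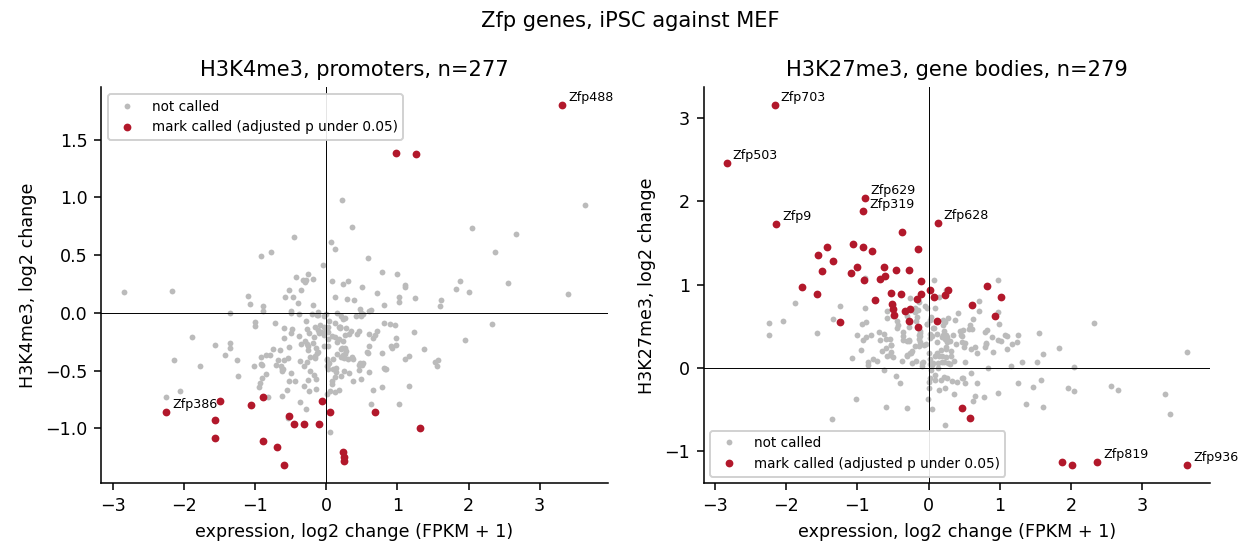
Log2 change in iPSCs against MEFs of H3K4me3 at promoters (left) and H3K27me3 over bodies (right) against the log2 change of FPKM + 1, 1 point per Zfp gene tested for both, with called marks in red. Zfp703 and Zfp503 lie at the upper left of the right panel, and Zfp488 at the upper right of the left one.

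Of the partners of KRAB zinc finger proteins and the enzymes of H3K9me3 and DNA methylation, 25 of 26 listed genes were found and tested. In iPSCs against MEFs 8 rose and 1 fell, in pre-iPSCs against MEFs 1 rose and 1 fell, and in iPSCs against pre-iPSCs 1 rose and 0 fell. The shares of all genes were 10.3% and 15.5%, 7.39% and 9%, and 3.91% and 4.71%. Trim28, the corepressor that KRAB domains bind, had 133 and 126 FPKM in MEFs, 221 and 148 in the pre-iPSCs and 547 and 320 in the iPSCs (1.69 ± 0.42 in iPSCs against MEFs, limma adjusted p = 0.0260). Setdb1, which writes H3K9me3 at KRAB targets, had 11.3 and 3.71, 28.1 and 12.4, and 14.3 and 16.3 FPKM and was not called (1.09 ± 0.46, limma adjusted p = 0.122). The other rises were Cbx1, an HP1 protein, Suv39h2, another H3K9 methyltransferase, the histone chaperone gene Daxx, the deacetylase gene Hdac1, the H3K9 demethylase gene Kdm4c, and Dnmt1 and Uhrf1 of maintenance DNA methylation. Chd3, a remodeller of the NuRD complex, fell from 51.0 and 34.2 to 4.12 and 6.77 FPKM (-2.76 ± 0.41, limma adjusted p = 0.00391).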

How the data were processed

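The 330 genes are the rows of the authors' expression tables that the symbol rule takes. They and all gene lists were chosen with earlier results of these data known. The authors aligned ChIP reads to mm9 with Bowtie 1.0.1 and made nucleosome calls with GeneTrack. In the deposited files there is, per call, a count of reads and a fuzziness signal (SD of read positions, not used). The authors computed the deposited FPKM with TopHat2 2.0.4 and Cufflinks 2.0.2 from uniquely mapped reads, in 2 tables of 1 replicate each. Their fold changes and p-values were not used.

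Counts were summed by dyad (start plus 73) per region for all 20156 genes and, for RPKM, scaled to the uniquely mapped reads that the study lists per library. Tests were edgeR 4.0.16 (filterByExpr, TMM, quasi-likelihood) and limma 3.58.1 with trend on log2(FPKM + 1), a mean of at least 0.5 FPKM and the table as a term, each with Benjamini-Hochberg adjustment over all genes tested. A fold on this scale understates low genes. DESeq2 1.42.0 was an alternative. No test was made of H3K9me3, with its single library per cell type, and its 95% intervals are exact Poisson. Replicates may be clones or cultures, and p-values measure only their spread. On simulated data for pre-iPSCs against MEFs, 2-fold and 4-fold changes were recovered at 109 and 199 of 200 H3K4me3 promoters (17397 and 17379 tested), 136 and 200 of 200 H3K27me3 bodies (17498 tested), and 1 and 120 of 200 transcripts (12294 and 12306 tested). False calls numbered 3 and 12, 7 and 15, and 0 and 12. The 2-fold transcripts had a median log2 change of 0.843 on this scale, under the cutoff of 1. Their recovery was thus limited by the cutoff and does not measure the spread of replicates. Fingers and KRAB boxes were found in proteins translated from GENCODE vM1, in place of RefSeq proteins, by the patterns C, 2 to 5 residues, C, 12 residues, H, 3 to 5 residues, H for a finger and a KRAB A box consensus.

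Genes were named by rule: the 8 with the highest mean H3K9me3, the 3 largest called changes of expression and the 2 of each mark in each direction and comparison, the 3 highest transcripts per cell type, and members with a known role. Genes listed as overlaps or as members of a cluster are named by their calls or position. The wider KRAB pattern, GC classes and division by replicate 2 of H3 were added after seeing the data. Software was R 4.3.3 and Python 3.11.15 with pandas 2.3.3, scipy 1.17.1 and numpy 2.4.6.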

Additional observations from a re-analysis of the deposited data

How the results depend on the processing

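Of 201 values computed under alternatives, 151 stayed within 1.5 times the value reported and 50 did not. A count of 0 under both settings was taken as staying, which holds for most H3 values. Changes of H3K9me3 were scored on higher and lower genes together, so a turned balance was taken as staying too. Rich Zfp ends numbered 39, 18 and 5 in MEFs, pre-iPSCs and iPSCs over the whole gene body, 48, 11 and 3 at 3 times the median, 95 and 36 in pre-iPSCs and iPSCs with calls of at least 2 reads, 149 and 31 after division by mean H3, and 38 in iPSCs over the last 1 kb. In iPSCs these shares were at or under those of all genes over whole bodies (1.52% against 2.07%), with calls of at least 2 reads (10.9% against 12.8%) and over the last 1 kb (11.5% against 11.8%), and above at 3 times the median (0.909% against 0.377%). Over whole bodies they were 11.8% against 4.7% in MEFs and 5.45% against 0.794% in pre-iPSCs, at 3 times the median 14.5% against 1.18% and 3.33% against 0.268%, and with calls of at least 2 reads 28.8% against 8.79% in pre-iPSCs. Over whole bodies 68 genes passed 1.5-fold in pre-iPSCs against MEFs, 57 higher and 11 lower (17.6% and 3.4%, against 19.5% and 5.34% of all genes). H3K4me3 calls in pre-iPSCs and in iPSCs against MEFs numbered 0 and 0 by DESeq2, and 26 and 64 scaled to uniquely mapped reads. H3K27me3 calls numbered 14, 3 and 35 by DESeq2 in pre-iPSCs against MEFs, iPSCs against pre-iPSCs and iPSCs against MEFs. The 14 were 7 rises and 7 falls (2.18% each, against 6.09% and 9.77% of all genes). The 3 were rises (0.935%, against 0.549% of all genes). In iPSCs against pre-iPSCs H3K27me3 calls numbered 0 scaled to uniquely mapped reads, 0 with calls of at least 2 reads and 2 with a replicate block. Expression calls without the filter were 0, 1 and 3, with 0 falls among them. Quantile normalization gave 13 in iPSCs against pre-iPSCs, 12 rises and 1 fall. The causes of these shifts were not tested, but without the filter more genes enter the adjustment. For these expression counts the shares of all genes are not given, so they do not show whether Zfp genes differed from all genes.

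Leaving out each library in turn gave these ranges of calls. For H3 over bodies they were 0 to 173 in pre-iPSCs against MEFs. For H3 at promoters they were 0 to 44 in pre-iPSCs against MEFs and 0 to 14 in iPSCs against pre-iPSCs. For H3K4me3 they were 0 to 3 in pre-iPSCs against MEFs and 2 to 25 in iPSCs against MEFs. For H3K27me3 they were 11 to 35 in pre-iPSCs against MEFs, 0 to 8 in iPSCs against pre-iPSCs and 24 to 63 in iPSCs against MEFs. For expression they were 6 to 26 in pre-iPSCs against MEFs, 2 to 26 in iPSCs against pre-iPSCs and 11 to 41 in iPSCs against MEFs. A lone sample is then taken to vary like the other groups. The ranges are counts of Zfp genes, and calls over all genes mostly moved the same way in the fits given above. The counts furthest from the reported ones came without replicate 2 of pre-iPSCs for H3, without replicate 1 of MEFs for H3K4me3 and for H3K27me3 in iPSCs against MEFs, and without replicate 2 of iPSCs for expression in iPSCs against MEFs.

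Deviations of same-numbered samples correlated at 0.86 and 0.79 between pre-iPSCs and iPSCs for H3 bodies and promoters, at 0.41 for H3K27me3 and 0.12 for H3K4me3, but at most at 0.01 between MEFs and either for the chromatin marks, so the numbers do not pair the samples throughout. A replicate block left 23 H3K4me3 and 52 H3K27me3 calls in iPSCs against MEFs, and moved no count but the one given above by over 1.5 times. Without the table term expression calls were 16, 10 and 41 Zfp genes, given without the shares of all genes. H3K9me3 is limited by about 12 reads per gene end and by single libraries.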

Other observations

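Outside the Zfp symbols, the 23 Zscan and Zkscan genes, which encode finger proteins with a SCAN domain, had 5 rich ends in MEFs (21.7%), 3 in the pre-iPSCs (13%) and 0 in the iPSCs, with medians of 0.295, 0.437 and 0.331 RPKM. Among families of at least 30 genes, grouped by the letters of their symbol, those starting with Zfp had the highest share rich in MEFs (27.7% of 357 genes), followed by Prss with 24.3%, Krt with 17.6% and Olfr with 17.4%. In pre-iPSCs the Zfp share was 17.1%, and those of Prss, Krt and Olfr were 2.70%, 1.96% and 3.07%. In iPSCs the order differed, with 17.6% for Krt, 5 of 37 genes for Prss, 4.76% for Zfp and 4.06% for Olfr. Zfp568, a KRAB gene inside the chromosome 7 cluster in which 10 of 14 genes were rich in MEFs, had 0.295, 0.437 and 0.397 RPKM of H3K9me3 at its end, and its transcript had 7.21 and 2.42 FPKM in MEFs, 6.17 and 3.98 in the pre-iPSCs and 13.2 and 16.0 in the iPSCs (limma adjusted p = 0.0420 in iPSCs against MEFs, a call kept without 1 of the 6 libraries only).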
